A study of Mus musculus with 11 samples.

Results

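Interferon-stimulated genes are the genes that cells switch on after they sense an interferon, and 41 of them were followed here in T cells sorted from inflamed mouse kidneys. The members were chosen by symbol, from a list of well-known interferon-stimulated genes, with earlier results of these data known. All 41 were found among the 46078 genes of the deposited count table. The mice were WT and were immunised with recombinant mouse MPO (myeloperoxidase, the neutrophil enzyme that is an autoantigen in vasculitis), and glomerulonephritis was then started with sheep anti-mouse basement membrane globulin at a low dose. On day 21 T cells from the kidneys were sorted by flow cytometry on CD4, CD8, CD127 (the alpha chain of the IL-7 receptor) and PD-1 (an inhibitory receptor of stimulated T cells), and each library was made from the pooled cells of 3 mice. The groups were CD4+CD127-PD-1+ (2 libraries, because a sample failed quality control according to the labels), CD4+CD127+PD-1- (3), CD8+CD127-PD-1+ (3) and CD8+CD127+PD-1- (3). All 4 groups therefore carried the immunisation and the globulin, and no untreated group was analysed here. The spread between libraries is a spread between pools, and the sources used here do not give strain, sex or age of the mice.

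Type I interferons bind the receptor pair IFNAR1 and IFNAR2, whose kinases JAK1 and TYK2 phosphorylate transcription factors in the cytoplasm. STAT2 and IRF9 are subunits of the complex ISGF3, which binds the interferon-stimulated response element (ISRE) in the promoters of its target genes, while interferon gamma acts mainly at another element, the gamma-activated sequence (GAS). The products of the target genes sense viral RNA, degrade it, block its translation or modify other proteins, and T cells and macrophages can both express them.

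The ISRE core was looked for in promoters, since ISGF3 binds this element in its target genes. RefSeq promoters (GRCm38.p6, 250 bases before to 50 bases after each gene's start) were matched to 33 of the 41 members. Ifi27l2a, Mx1, Oas2, Parp14, Parp9, Rtp4, Usp18 and Zbp1 had no entry. The core GAAANNGAAA, or TTTCNNTTTC on the other strand, was present in 17 of the 33 members (51.5%), against 3.99% of the 27025 genes in the promoter table. Matches may overlap one another. A GAS core, TTCNNNGAA, which reads the same on both strands, was present in 5 of the 33 members (15.2%), against 9.55% of all genes. The windows below show the match in capitals with flanking bases, 5′ to 3′ on the strand of the gene, first for members that were higher in CD127-PD-1+ cells in at least one lineage and then for 3 that were not called.
Isg15, chr4:156200863-156200908, minus strand: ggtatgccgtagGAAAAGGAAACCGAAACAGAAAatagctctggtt
Oas1a, chr5:120907518-120907557, minus strand: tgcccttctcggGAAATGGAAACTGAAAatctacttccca
Oas3, chr5:120777713-120777746, minus strand: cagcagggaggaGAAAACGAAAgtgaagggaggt
Rsad2, chr12:26456551-26456584, minus strand: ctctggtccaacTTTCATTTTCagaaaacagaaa
Gbp3, chr3:142559987-142560026, plus strand: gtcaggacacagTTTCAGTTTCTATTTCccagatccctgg
Stat2, chr10:128270264-128270297, plus strand: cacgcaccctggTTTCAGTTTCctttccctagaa
Ifit1, chr19:34640773-34640825, plus strand: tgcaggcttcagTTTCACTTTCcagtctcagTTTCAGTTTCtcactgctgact
Ifit3, chr19:34583361-34583428, plus strand: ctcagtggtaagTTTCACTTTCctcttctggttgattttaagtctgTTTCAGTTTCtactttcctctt
Ifit3b, chr19:34607757-34607824, plus strand: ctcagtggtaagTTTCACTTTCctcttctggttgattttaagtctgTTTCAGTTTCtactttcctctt
Bst2, chr8:71537575-71537614, minus strand: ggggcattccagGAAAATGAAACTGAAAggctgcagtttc
Gbp2, chr3:142620592-142620625, plus strand: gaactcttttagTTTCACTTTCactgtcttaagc
The Isg15 window holds 3 overlapping matches, and Oas1a, Gbp3 and Bst2 hold 2 each. The Ifit3 and Ifit3b windows have the same letters, although Ifit3 was called in CD4 cells and Ifit3b was not called in either lineage. Of the matched members, 10 of the 13 that were called in at least one state comparison held the core, and so did 7 of the 20 that were called in neither, which is given as a description.

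The libraries held 10572505 to 16057310 counts and 20514 to 21849 detected genes. Mitochondrial genes took 29.99% to 33.8% of the counts in 8 libraries and 38.5%, 43.5% and 44.8% in CD8+CD127-PD-1+ replicates 1, 2 and 3. T cell genes (9 markers, among them Cd3e and Trac) summed to between 1380 and 2276 CPM (counts normalised to the TMM-scaled library size) with overlap among all 4 groups. Macrophage and monocyte genes were present as well in libraries of the CD127-PD-1+ groups. All 11 markers of that list, such as C1qa and Csf1r, were above 0 in every library, and all 11 were called higher in CD127-PD-1+ cells in both lineages. Their sum was 2492 and 1171 CPM in CD4+CD127-PD-1+ replicates 1 and 2 against 53.0 to 117 in CD4+CD127+PD-1-, and 1204, 2303 and 2274 CPM in CD8+CD127-PD-1+ against 62.6 to 125 in CD8+CD127+PD-1-. Plasmacytoid dendritic cell markers (10 genes, none at 0 in any library) moved the other way, with sums of 421 to 583 against 957 to 1928 CPM in CD4 cells and 379 to 403 against 754 to 1438 CPM in CD8 cells. Neutrophil markers (5 genes) summed to 36.5 to 240.2 CPM in CD8+CD127-PD-1+ and B cell markers (5 genes) to 76.4 to 213 CPM, against at most 32.2 and 69.2 CPM in the other groups. In bulk libraries, fewer cells of a type and less RNA per cell cannot be told apart, and this holds for every level below.

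In CD127-PD-1+ cells, compared with CD127+PD-1- cells of the same lineage, the members called higher outnumbered those called lower in CD4 and in CD8 cells. Oas2, Oasl2 and Oas1a, of the OAS family that makes the messenger activating the antiviral nuclease RNase L, had the largest estimates among the members in both lineages. In CD4 cells 15 of the 41 members were called higher (adjusted p under 0.05, edgeR quasi-likelihood test with Benjamini-Hochberg adjustment over all 16365 tested genes) and 0 lower, where 6.81% of all tested genes were called higher and 4.87% lower. In CD8 cells 17 were called higher and 0 lower, against 9.05% and 6.56% of all tested genes. Since the members were chosen with earlier results known, these shares are given as a description. Without the call, 20 members in CD4 cells and 31 in CD8 cells (48.8% and 75.6%) had an unadjusted p under 0.05, against 25.7% and 29.5% of all tested genes. The median log2 difference of the members was 0.42 in CD4 and 0.69 in CD8 cells, with 36 and 38 of the 41 above 0, while over all tested genes it was 0.02 and 0.01 with 51.9% and 50.9% above 0. The CD8 median of the members was 0.39 without CD8+CD127-PD-1+ replicate 3, with 38 of the 41 above 0. Without CD4+CD127-PD-1+ replicate 1, which leaves 1 library in that group, the CD4 median was 0.33, with 30 of the 41 above 0. All 41 members passed the filter on low counts, and their mean in each group was above the filter's level of 0.698 CPM. None was at 0 in any library.

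**Figure D1:**
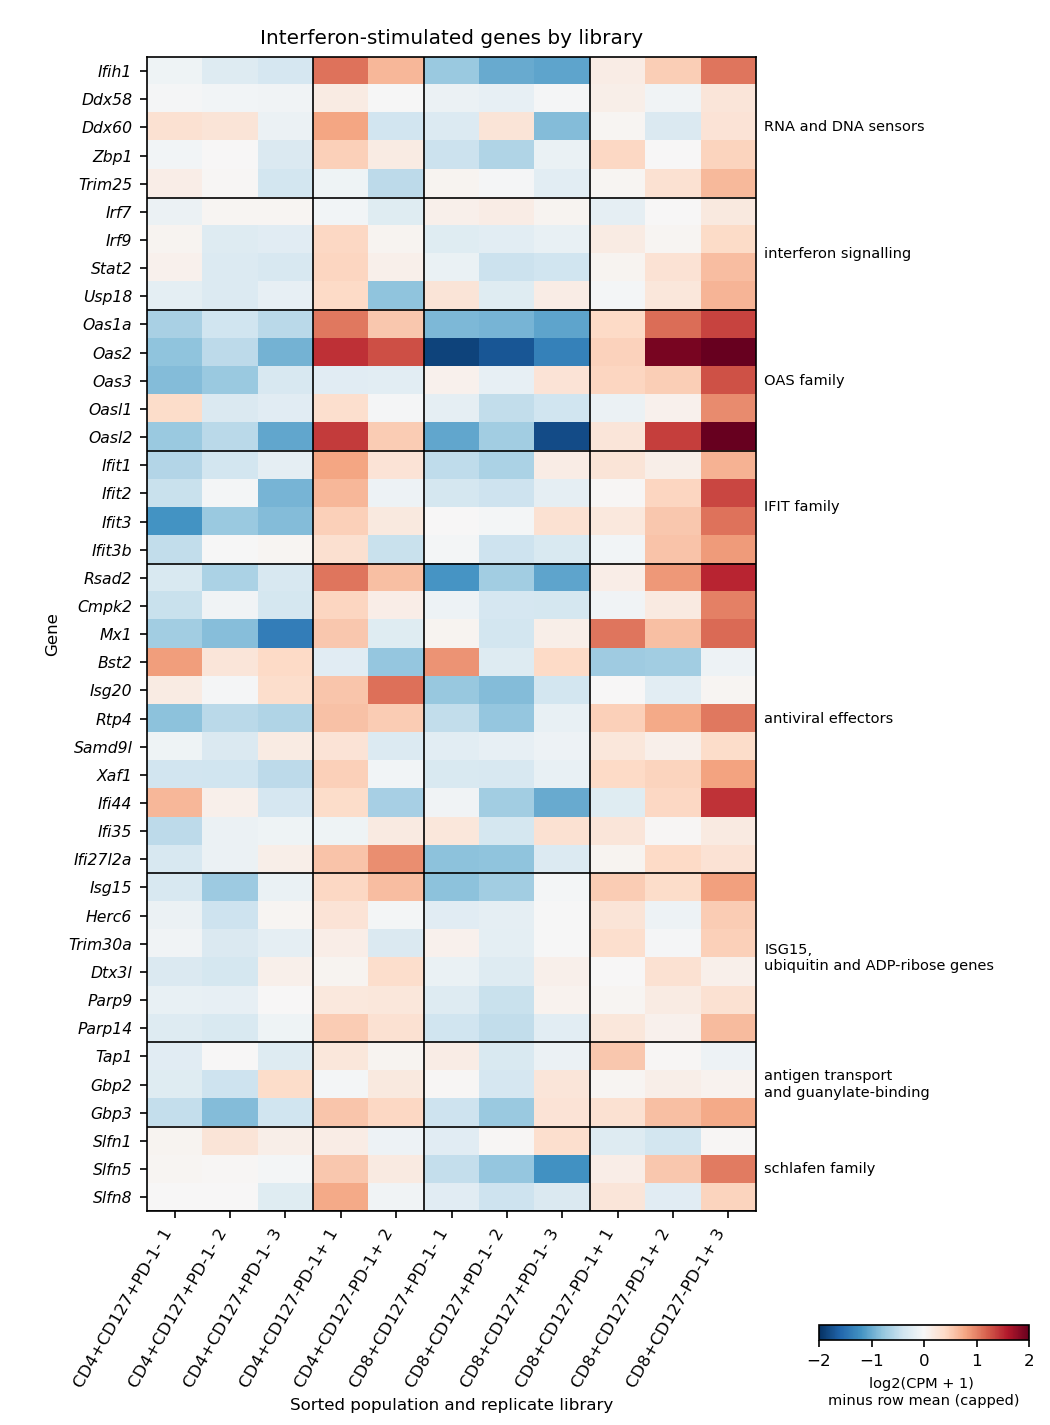
Heat map of the 41 genes (vertical axis, grouped by role) in the 11 libraries (horizontal axis), coloured by log2(CPM + 1) minus the mean of the gene over the libraries, with the colour scale capped at 2 in both directions. Oas2 is darkest red in CD8+CD127-PD-1+ replicates 2 and 3 and Oasl2 in replicate 3, and most genes in CD8+CD127-PD-1+ replicate 3 are above their mean.

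In the calls, 13 members appeared in both lineages, which is 86.7% of those called in CD4 cells and 76.5% of those called in CD8 cells. They were Gbp3, Ifi27l2a, Ifih1, Isg15, Isg20, Mx1, Oas1a, Oas2, Oasl2, Parp14, Rsad2, Rtp4 and Xaf1. Ifit1 and Ifit3 were called in CD4 cells without being called in CD8 cells, and Oas3, Slfn5, Stat2 and Zbp1 the other way round. The test of the difference itself is given further on. In each of these calls the libraries of the 2 groups did not overlap, which was not counted over all tested genes and is no support beyond the call.

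The counts in CD4 cells leaned on single libraries. Without CD4+CD127-PD-1+ replicate 1, which leaves 1 library in that group and assumes that it varies like the other groups, 4 members were called higher (Ifi27l2a, Isg20, Oas2 and Rtp4). Calls were also lost without CD4+CD127-PD-1+ replicate 2, which leaves 1 library in that group too. The median log2 difference of the members was 0.6 in that fit. Without CD4+CD127+PD-1- replicates 1, 2 or 3 in turn, the counts called higher were 6, 6 and 9. The 6 were Ifih1, Ifit3, Mx1, Oas1a, Oas2 and Rtp4 in both cases. In CD8 cells the count was 10 without CD8+CD127-PD-1+ replicate 3 and 10 without CD8+CD127+PD-1- replicate 2, and in both cases the calls of Gbp3, Isg15, Isg20, Mx1, Oas3, Stat2 and Zbp1 were the ones lost. Calls over all tested genes fell as well. With every library, 1115 genes were called higher in CD4 cells and 1481 in CD8 cells. The CD4 number became 675, 588 or 795 when replicate 1, 2 or 3 of CD4+CD127+PD-1- was dropped. The CD8 number became 861 when CD8+CD127-PD-1+ replicate 3 was dropped, or 929 when CD8+CD127+PD-1- replicate 2 was. Fewer calls in these fits were thus not limited to the members. Oas2 and Rtp4 were the members called in CD4 cells under every alternative that was run, and in CD8 cells Ifi27l2a, Ifih1, Oas1a, Oas2, Oasl2, Parp14, Rsad2, Rtp4, Slfn5 and Xaf1 were.

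**Figure D2:**
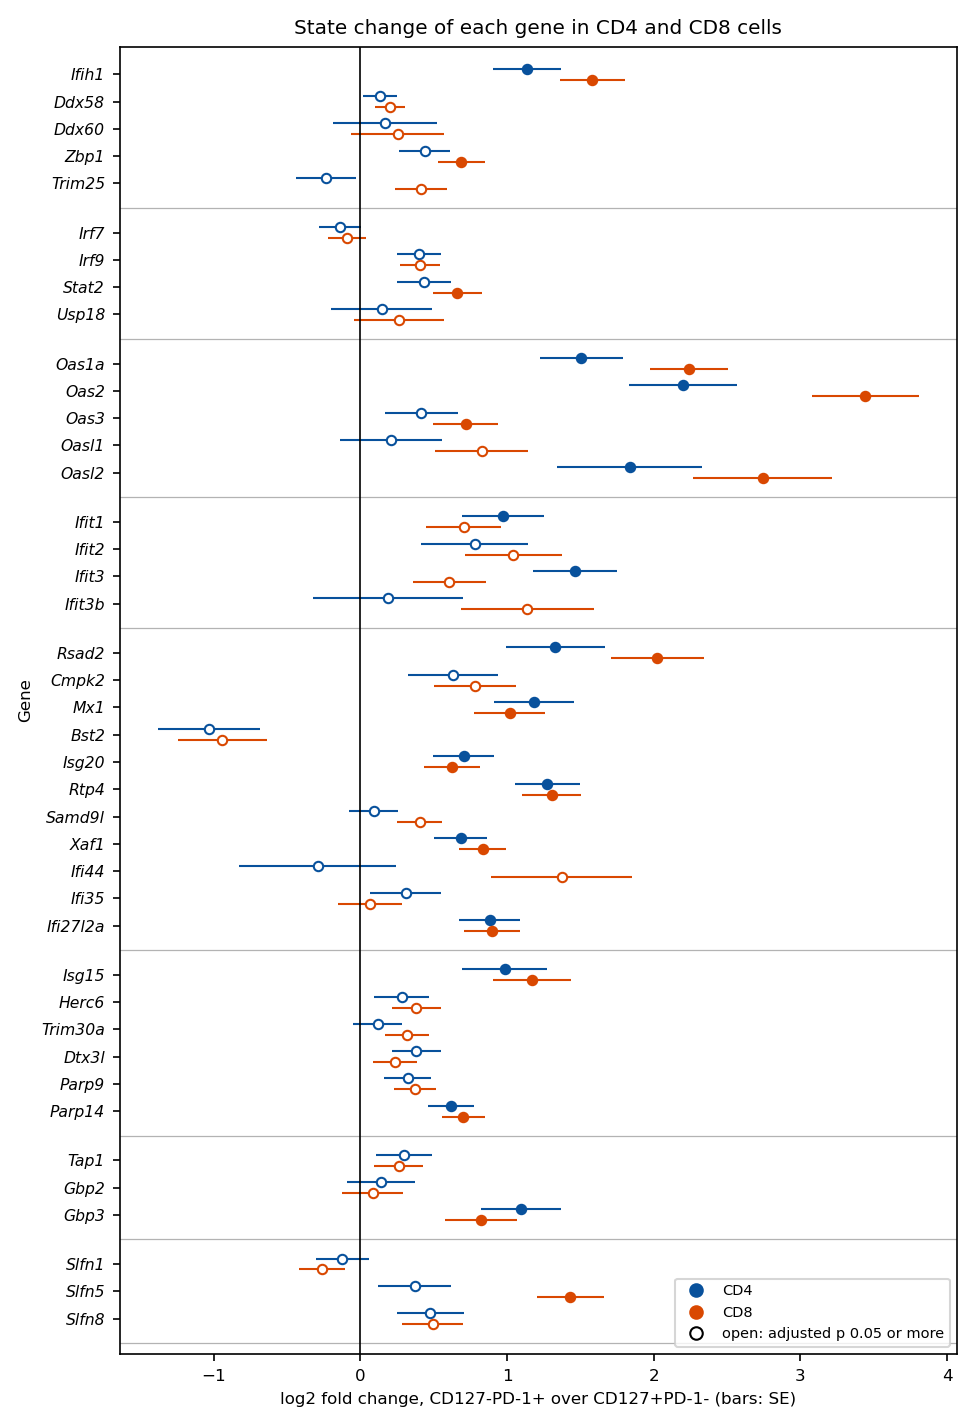
Log2 fold change of each of the 41 genes (vertical axis, by role) in CD127-PD-1+ over CD127+PD-1- cells (horizontal axis), with SE bars, for CD4 (blue) and CD8 (orange) cells. Filled points have an adjusted p under 0.05, and Oas2 lies at 2.20 in CD4 and 3.44 in CD8 cells while Bst2 lies at -1.03 and -0.94 with open points.

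Among the sensors of foreign nucleic acid, 1 of 5 was called higher in CD4 cells and 2 of 5 in CD8 cells. Ifih1 (chr2:62595798-62646255) encodes MDA5, a cytosolic sensor of long double-stranded RNA. It had 96.1 and 71.5 CPM in CD4+CD127-PD-1+ and 42.2, 37.0 and 35.1 in CD4+CD127+PD-1- libraries, and 49.4, 63.1 and 94.7 in CD8+CD127-PD-1+ against 26.3, 21.8 and 21.1 in CD8+CD127+PD-1- libraries. Each CD127-PD-1+ library was above each CD127+PD-1- library, by a log2 difference of 1.14 in CD4 cells (SE 0.23, adjusted p = 0.0103) and, with adjusted p = 0.000742, of 1.58 in CD8 cells (SE 0.22). Zbp1 (chr2:173206612-173218923), a sensor of Z-form nucleic acid that can start necroptosis, was called in CD8 cells. Its libraries had 133, 101 and 136 CPM against 74.0, 65.1 and 90.6 in CD8 cells (log2 0.69, SE 0.16, adjusted p = 0.0133) and 139 and 111 against 95.9, 100.4 and 81.2 CPM in CD4 cells (0.44, SE 0.18, adjusted p = 0.14). The CD8 call was lost with the replicate numbers of the sample descriptions as a block. With that block CD8+CD127-PD-1+ replicate 3 stands alone and does not add to the CD8 comparison, here and for the genes below. The groups did not overlap in either lineage. Ddx58, which encodes the RNA sensor RIG-I, was between 78.6 and 104 CPM in every library, with log2 differences of 0.13 (SE 0.11) and 0.20 (SE 0.10). Ddx60, a helicase linked to RIG-I signalling, and Trim25, the ubiquitin ligase that acts on RIG-I, were not called, and the Trim25 estimate was -0.23 in CD4 and 0.41 in CD8 cells.

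Of the 4 members that carry the interferon signal itself, 0 were called in CD4 and 1 in CD8 cells. Stat2 (chr10:128270559-128292849), a subunit of ISGF3, was called in CD8 cells, where its mean was 96.6 ± 19.1 CPM (SD, n = 3) against 61.2 ± 7.16 (SD, n = 3; log2 0.66, SE 0.17, adjusted p = 0.0207). In CD4 cells it had 92.3 ± 14.6 (SD, n = 2) against 68.2 ± 10.9 CPM (SD, n = 3; log2 0.44, adjusted p = 0.163). The CD8 call of Stat2 was lost without CD8+CD127-PD-1+ replicate 3 (adjusted p = 0.0901) and without CD8+CD127+PD-1- replicates 2 (0.0792) or 3 (0.0535). It was also lost with the replicate numbers of the sample descriptions as a block. Irf9, the DNA-binding subunit of the same complex, had log2 differences of 0.40 (SE 0.15, adjusted p = 0.118) and 0.41 (SE 0.14, adjusted p = 0.0668), and its libraries did not overlap between the states in either lineage. Irf7, the factor that amplifies interferon transcription, was the flattest of the 4, with all libraries between 27.1 and 36.9 CPM and differences of -0.14 (95% interval -0.46 to 0.18) in CD4 and -0.09 (-0.37 to 0.20) in CD8 cells. Usp18, which removes ISG15 from proteins and limits receptor signalling, had 15.5 and 6.16 CPM in CD4+CD127-PD-1+ replicates 1 and 2, a spread wider than the CD4+CD127+PD-1- range of 9.29 to 10.1.

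The OAS family had 3 of 5 members called in CD4 cells and 4 of 5 in CD8 cells. Oas2 (chr5:120730333-120749853) encodes a double-stranded RNA-activated synthetase. It stood at 66.3 and 58.4 CPM in CD4+CD127-PD-1+ and 13.0, 16.0 and 11.6 in CD4+CD127+PD-1- libraries, and at 32.6, 89.8 and 103 in CD8+CD127-PD-1+ and 5.79, 6.45 and 8.52 in CD8+CD127+PD-1- libraries. All CD127-PD-1+ libraries were above all CD127+PD-1- libraries, and CD8+CD127-PD-1+ replicate 1 was the lowest of the 5. Oas2 was 4.60-fold higher in CD4 cells (log2 2.20, SE 0.37, adjusted p = 0.00377) and 10.9-fold higher in CD8 cells (log2 3.44, SE 0.37, adjusted p = 0.00018). Oasl2 (chr5:114896936-114912234), an OAS-like protein with ubiquitin-like domains, had 81.6 and 43.8 against 17.8, 20.5 and 14.2 CPM in CD4 cells and 36.3, 80.7 and 156 against 14.3, 18.3 and 8.11 CPM in CD8 cells. The 3 CD8+CD127-PD-1+ libraries thus differed widely while remaining above their comparison group, with a CD4 estimate of 1.84 (SE 0.49, adjusted p = 0.0336) beside 2.74 for CD8 cells (SE 0.47, adjusted p = 0.00267). The CD4 call for Oasl2 was lost with limma-voom (adjusted p = 0.0703), without CD4+CD127-PD-1+ replicate 1 (0.212) and without any one of the CD4+CD127+PD-1- libraries (0.0794 to 0.0981).

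Oas1a (chr5:120896256-120907521), another synthetase, had 17.2 and 11.6 against 4.56, 5.61 and 5.02 CPM in CD4 cells and 10.5, 17.8 and 21.3 against 3.70, 3.59 and 3.19 CPM in CD8 cells. The groups were well apart in both lineages, with differences of 1.51 (SE 0.28, adjusted p = 0.00704) and 2.24 (SE 0.27, adjusted p = 0.000342). Of the 75-base runs of its transcript, 47.6% also occur in the paralog Oas1g, so reads could be assigned uncertainly between them. Oas1g, which is no member, was itself higher in CD127-PD-1+ cells in both lineages. Oas3 (chr5:120753098-120777661), the largest synthetase, had 121 ± 42.8 (SD, n = 3) against 73.7 ± 11.2 CPM (SD, n = 3) in CD8 cells (log2 0.72, SE 0.22, adjusted p = 0.0488). That call was lost with limma-voom (adjusted p = 0.0526), with the compared groups alone (0.0751), without mitochondrial genes (0.0582) and without single libraries. It was also lost with the replicate numbers of the sample descriptions as a block. Oasl1, which represses translation of Irf7, was not called and lay between 5.21 and 15.8 CPM.

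The IFIT family members bind viral RNA and block its translation, and the 4 among the 41 members lie within chr19:34550694-34650009. In CD4 cells 2 of the 4 were called higher and in CD8 cells 0 of 4, where all 4 had an unadjusted p under 0.05 and estimates of 0.61 to 1.14. Ifit3 had 11.9 and 9.67 against 3.07, 4.53 and 4.09 CPM in CD4 cells (log2 1.47, SE 0.29, adjusted p = 0.00805). In CD8 cells its libraries had 9.71, 12.5 and 18.7 against 8.35, 8.06 and 10.5 CPM, so the groups overlapped (log2 0.61, SE 0.25, adjusted p = 0.127). Ifit3 and its neighbour Ifit3b share long stretches of sequence, 41.1% of the 75-base runs of the Ifit3 transcript and 35.7% of those of Ifit3b, and reads of the pair may be exchanged. Ifit3b was the least abundant member, between 0.912 and 3.87 CPM. Ifit1, which recognises RNA that lacks cap methylation, had 24.0 ± 6.39 (SD, n = 2) against 12.2 ± 1.84 CPM (SD, n = 3) in CD4 cells (log2 0.97, SE 0.28, adjusted p = 0.0433), and 0.70 (SE 0.25, adjusted p = 0.0847) was its estimate in CD8 cells. The CD4 call of Ifit1 was lost without CD4+CD127+PD-1- replicates 1, 2 or 3 in turn (adjusted p = 0.0591 to 0.133). Without CD4+CD127-PD-1+ replicate 1, which leaves 1 library in that group, the call was lost as well, with a log2 difference of 0.67. It was also lost without CD8+CD127-PD-1+ replicates 1 or 2 or CD8+CD127+PD-1- replicate 1 (0.0515 to 0.0552). With the replicate numbers of the sample descriptions as a block it was lost too (0.0569), so the CD4 count also depends on the setting. Ifit2 was not called by edgeR in either lineage, at 0.78 (SE 0.36) and 1.04 (SE 0.33, adjusted p = 0.054). In CD8 cells it was called higher by DESeq2 (adjusted p = 0.0141), by edgeR without the filter on low counts (0.00253) and without some single libraries, among them CD8+CD127-PD-1+ replicate 1 (0.0226), and Ifit1 was called there without CD8+CD127+PD-1- replicate 3 (0.0168), so the count of 0 in CD8 cells depends on the setting.

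**Figure D3:**
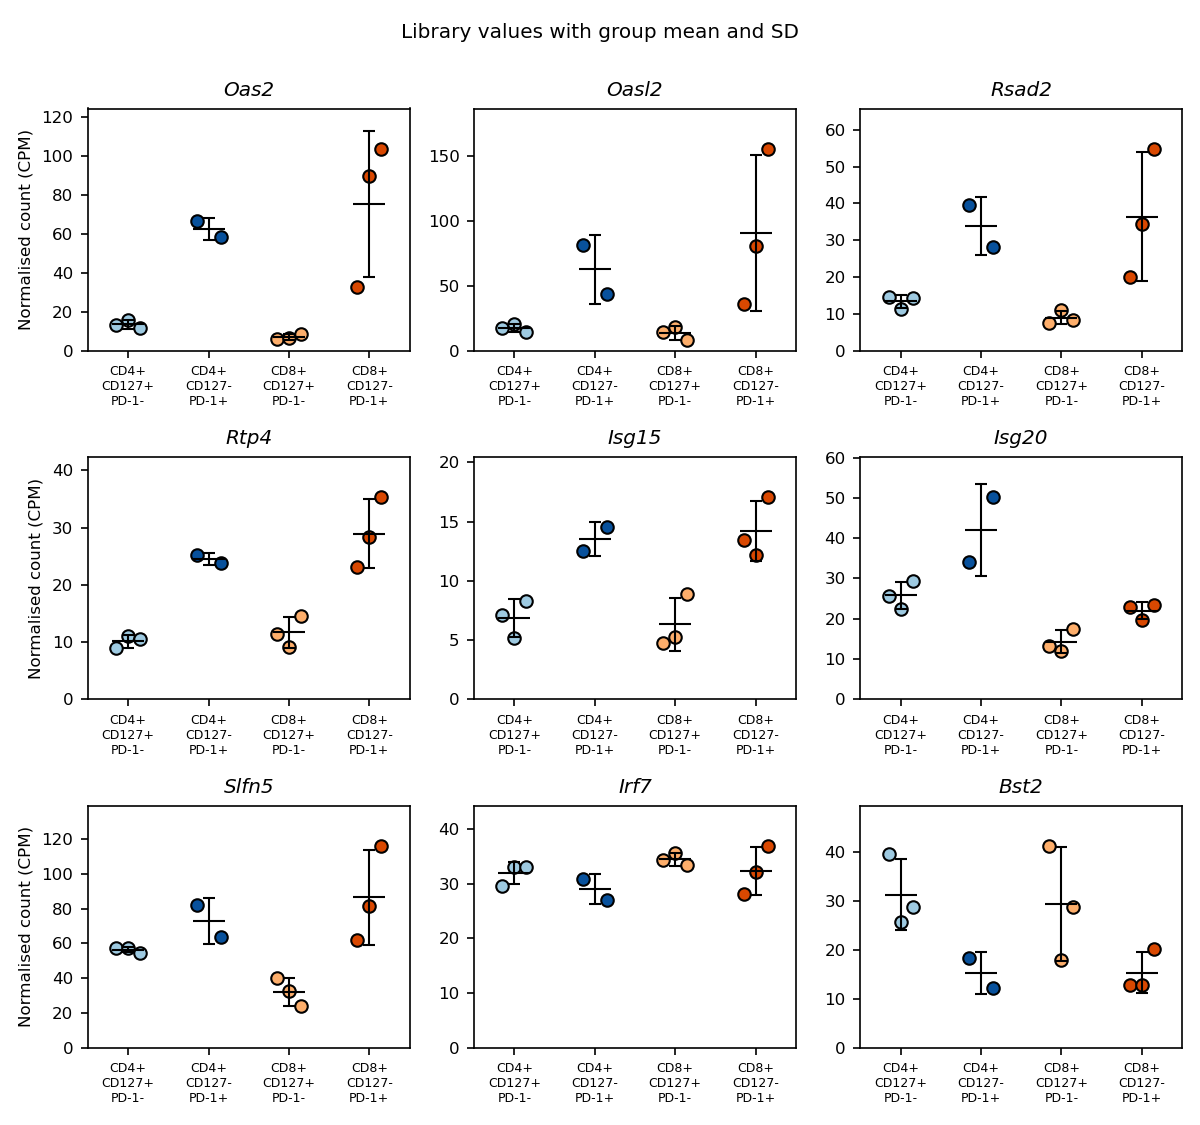
CPM (vertical axes, from 0) of 9 genes in each library, as points, with the group mean and SD as bars, for the 4 sorted populations (horizontal axes). Oas2, Oasl2, Rsad2, Rtp4 and Isg15 have CD127-PD-1+ points above all CD127+PD-1- points of their lineage, Irf7 lies between 27.1 and 36.9 CPM, and Bst2 is lower on average in CD127-PD-1+ cells.

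The antiviral effectors were the largest group, with 6 of 11 members called higher in CD4 cells and 6 of 11 in CD8 cells. Rsad2 (chr12:26442746-26456452) encodes viperin, which makes a chain-terminating nucleotide. It had 39.5 and 28.2 against 14.6, 11.4 and 14.4 CPM in CD4 cells and 20.1, 34.4 and 54.8 against 7.54, 10.997 and 8.32 CPM in CD8 cells. The differences were 1.33 (SE 0.33, adjusted p = 0.0254) and 2.03 (SE 0.32, adjusted p = 0.00147), and the neighbouring gene Cmpk2, a mitochondrial nucleotide kinase, had 0.63 and 0.78 without a call. Rtp4 (chr16:23520291-23614222), a chaperone of G protein-coupled receptors that restricts some viruses, was called in both lineages. Its values were 25.2 and 23.8 against 8.87, 10.98 and 10.5 CPM in CD4 cells and 23.2, 28.4 and 35.3 against 11.3, 9.16 and 14.6 CPM in CD8 cells. The libraries of a group lay close together in CD4 cells and spread more widely in CD8 cells. The CD8 difference was 1.30 (SE 0.20, adjusted p = 0.00142), and 12.4% of the 75-base runs of its transcript also occur in the predicted gene Gm45338.

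Mx1 (chr16:97447035-97462907), a dynamin-like GTPase against RNA viruses, had 60.7 and 34.8 against 25.1, 22.6 and 15.2 CPM in CD4 cells (log2 1.19, SE 0.27, adjusted p = 0.0164). In CD8 cells its level was 81.2 ± 15.4 (SD, n = 3) against 40.1 ± 7.07 CPM (SD, n = 3; log2 1.02, SE 0.24, adjusted p = 0.0155). Xaf1, a pro-apoptotic antagonist of the inhibitor XIAP, had 50.4 and 34.5 against 27.4, 27.1 and 24.6 CPM in CD4 cells and 47.4, 49.4 and 63.2 against 28.8, 28.7 and 32.4 CPM in CD8 cells. Its differences were 0.68 (SE 0.18, adjusted p = 0.0297) and 0.83 (SE 0.16, adjusted p = 0.00523), with the lowest CD127-PD-1+ value in CD4+CD127-PD-1+ replicate 2. With the compared groups alone the CD4 call of Xaf1 was lost (adjusted p = 0.0629). Ifi27l2a, a small membrane protein of the ISG12 family, had 48.2 and 62.0 against 25.4, 29.5 and 34.9 CPM in CD4 cells and 33.5, 42.8 and 39.5 against 17.7, 18.0 and 26.4 CPM in CD8 cells. The 2 differences were almost the same size, 0.88 (SE 0.21, adjusted p = 0.0188) and 0.90 (SE 0.19, adjusted p = 0.00839).

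Isg20, an exonuclease that degrades single-stranded RNA, was called in both lineages close to the threshold. It was at 42.1 ± 11.4 (SD, n = 2) against 25.8 ± 3.41 CPM (SD, n = 3) in CD4 cells (log2 0.71, SE 0.21, adjusted p = 0.0485) and at 22.0 ± 2.13 (SD, n = 3) against 14.3 ± 2.89 CPM (SD, n = 3) in CD8 cells (log2 0.63, SE 0.19, adjusted p = 0.0479). Both calls were lost without mitochondrial genes (adjusted p = 0.0563 and 0.0571), and the CD4 call with the compared groups alone (0.0749) and the CD8 call with limma-voom (0.0568). The CD8 call was also lost with the replicate numbers of the sample descriptions as a block. Samd9l, which restricts viral translation, and Ifi35 were not called, and Ifi44 had estimates of opposite sign, -0.29 in CD4 cells (SE 0.53) and 1.37 in CD8 cells (SE 0.48, adjusted p = 0.0768). DESeq2 called Ifi44 higher in CD8 cells (adjusted p = 0.0266), as did edgeR without the filter (0.00604) and without CD8+CD127-PD-1+ replicate 1 (0.0342).

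Bst2 (chr8:71534255-71537456), tetherin, which holds budding virus particles at the cell surface, had the opposite sign to most members. Its libraries had 18.4 and 12.3 against 39.5, 25.7 and 28.8 CPM in CD4 cells and 12.9, 12.9 and 20.2 against 41.3, 18.0 and 28.8 CPM in CD8 cells. The groups did not overlap in CD4 cells and overlapped in CD8 cells, with differences of -1.03 (SE 0.35, adjusted p = 0.0803) and -0.94 (SE 0.30, adjusted p = 0.0576) that were not called. DESeq2 called it lower in both lineages (adjusted p = 0.027 and 0.0181), and so did edgeR without the filter on low counts (0.00762 and 0.00363). Bst2 is also a marker of plasmacytoid dendritic cells, and 7 of the 10 other markers of those cells were called lower in CD4 and 5 of 10 in CD8 cells, among them Siglech. Their part in the Bst2 values was not tested.

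In the group of ISG15, ubiquitin and ADP-ribose genes, 2 of 6 members were called in each lineage, Isg15 and Parp14. Isg15 (chr4:156199424-156200818), the ubiquitin-like modifier that is attached to proteins during the response, had 13.4, 12.2 and 17.0 against 4.78, 5.28 and 8.87 CPM in CD8 cells (log2 1.17, SE 0.26, adjusted p = 0.0112). The CD4 libraries had 13.5 ± 1.43 (SD, n = 2) against 6.85 ± 1.59 CPM (SD, n = 3; log2 0.98, SE 0.29, adjusted p = 0.0467). That CD4 call was lost without mitochondrial genes (adjusted p = 0.0508) and without CD4+CD127+PD-1- replicates 1, 2 or 3 in turn. Leaving out either CD4+CD127-PD-1+ library, which leaves 1 in that group, lost the call too. It was also lost without CD8+CD127-PD-1+ replicates 1, 2 or 3 or CD8+CD127+PD-1- replicate 2, which are not in that comparison. Parp14 (chr16:35832874-35871544), an ADP-ribosyltransferase, had 285 and 247 against 168, 162 and 189 CPM in CD4 cells and 235, 214 and 312 against 152, 142 and 174 CPM in CD8 cells. Its groups were apart in both lineages, with a difference of 0.62 (SE 0.16, adjusted p = 0.0276) in CD4 cells that was 0.70 in CD8 cells (SE 0.14, adjusted p = 0.00698). Parp9 and Dtx3l, the partners of a shared ADP-ribose and ubiquitin ligase complex, were not called. Their loci overlap on chromosome 16, so that reads in the overlap cannot be told apart without strand, and their estimates were 0.32 to 0.38 in CD4 and 0.24 to 0.37 in CD8 cells. Herc6, the mouse ISG15 ligase, and Trim30a, a regulator of inflammatory signalling, were not called, and 22.4% of the 75-base runs of Herc6 also occur in the predicted gene Gm45193.

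Of the 3 antigen transport and guanylate-binding genes, Gbp3 alone was called, in both lineages. This GTPase attacks intracellular pathogens, and it had 37.7 and 34.3 against 18.1, 13.5 and 19.1 CPM in CD4 cells (log2 1.09, SE 0.27, adjusted p = 0.0238). In CD8 cells its libraries ranged from 31.6 to 43.7 against 14.8 to 31.0 CPM, which nearly touched (log2 0.82, SE 0.25, adjusted p = 0.042), and this call was lost with the compared groups alone (adjusted p = 0.0733). It was also lost with the replicate numbers of the sample descriptions as a block. Tap1, the peptide transporter for class I antigen presentation, had differences of 0.30 and 0.26, and Gbp2 of 0.14 and 0.09, without a call.

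The schlafen genes regulate growth and translation, and 1 of 3 was called in CD8 and 0 of 3 in CD4 cells. Slfn5 (chr11:82951349-82964840) had 61.9, 81.8 and 116 against 40.0, 32.5 and 23.8 CPM in CD8 cells (log2 1.43, SE 0.23, adjusted p = 0.00176). In CD4 cells it had 82.1 and 63.7 against 57.4, 57.2 and 54.6 CPM (0.37, SE 0.25, adjusted p = 0.396), so that the CD4 groups were apart with a narrow gap. Slfn8 had 202 and 113 against 120, 119 and 99.9 CPM in CD4 cells and 140, 102 and 163 against 101, 88.5 and 97.5 CPM in CD8 cells, without a call (0.48 and 0.49). The Slfn8 value of CD4+CD127-PD-1+ replicate 1 was the highest of the 11, and the other CD4+CD127-PD-1+ library fell within the range of CD4+CD127+PD-1-. Slfn1, the remaining member, had estimates of -0.12 and -0.26.

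Per kilobase of exon, where levels of different genes can be compared, Ifi27l2a was the highest member, at 74.2 CPM per kb averaged over the 11 libraries. Trim30a (39.9), Slfn8 (29.9) and Zbp1 (29.1) followed, and Ifit3b was lowest at 0.908. Ifi27l2a was highest in each of the 4 groups as well, while the order below it changed. In CD4+CD127-PD-1+ Slfn8 (38.5) was just above Trim30a (37.8), and in the CD127+PD-1- groups Bst2 (34.7 in CD4 and 32.5 in CD8 cells) and Slfn1 (28.2 and 26.7) stood above Slfn8 and Zbp1. Trim30a had 178 and 133 CPM in CD4+CD127-PD-1+, 155, 132 and 143 in CD4+CD127+PD-1-, 206, 159 and 226 in CD8+CD127-PD-1+ and 171, 142 and 161 in CD8+CD127+PD-1- libraries. These ranges overlapped in both lineages, and the differences were 0.12 and 0.32 without a call. Among the OAS genes, Oas2 was at 14.0 CPM per kb in CD4+CD127-PD-1+ and 16.9 in CD8+CD127-PD-1+ and at 3.04 and 1.56 in the CD127+PD-1- populations.

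The member values were set beside the macrophage marker sum library by library. In CD4+CD127-PD-1+, replicate 1 had the larger sum (2492 against 1171 CPM) and was the higher library for 12 of the 15 called members and for 33 of all 41. Isg15, Isg20 and Ifi27l2a were higher in replicate 2. In CD8+CD127-PD-1+, replicate 1 had the smallest sum (1204 CPM) and was the lowest library for 12 of the 17 called members and 25 of all 41. Replicate 2 had the largest sum (2303 CPM, against 2274 in replicate 3) and was the highest library for 1 of the 17. The sum was 1171 CPM or more in every CD127-PD-1+ library and 125 CPM or less in every CD127+PD-1- library, so the state and the macrophage signal cannot be told apart in these groups, and the part of the latter in the member values was not tested. Neutrophil and B cell markers were also higher in CD8+CD127-PD-1+, and their part was not tested either.

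**Figure D4:**
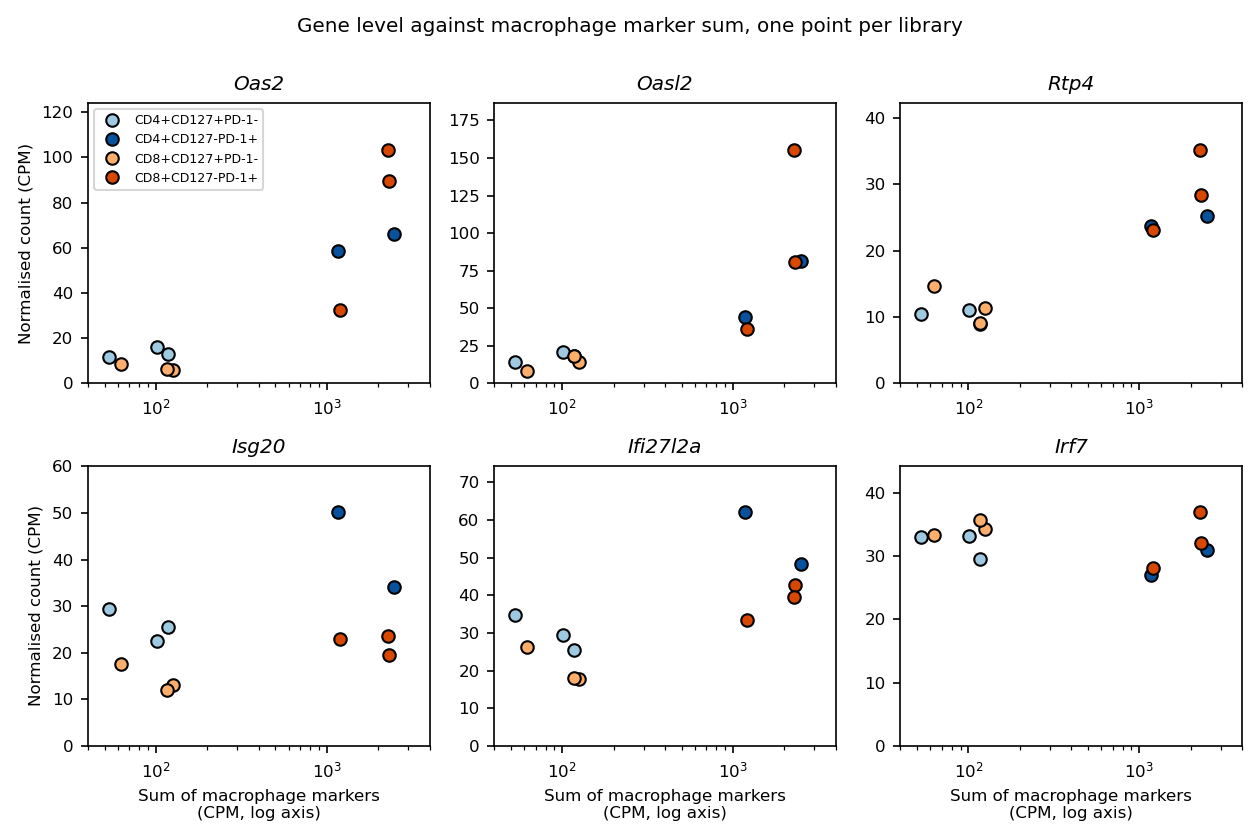
CPM of 6 genes (vertical axes) against the sum of 11 macrophage markers in CPM (horizontal axes, log scale), with a point for each of the 11 libraries, coloured by population. The CD127-PD-1+ points lie at 1171 CPM and above on the horizontal axis, Oas2 and Oasl2 are high there, and Irf7 is level across the axis.

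The lineages were compared within each state. In CD127-PD-1+ cells 1 of the 41 members (2.44%) was called higher in CD4 than in CD8 cells and 0 lower, against 1.6% and 0.843% of all tested genes. The one was Isg20, with 42.1 ± 11.4 (SD, n = 2) against 22.0 ± 2.13 CPM (SD, n = 3; log2 0.94, SE 0.21, adjusted p = 0.0387). In CD127+PD-1- cells 1 member was called higher, again Isg20 (25.8 ± 3.41 against 14.3 ± 2.89 CPM, SD, n = 3 each, log2 0.85, SE 0.19, adjusted p = 0.0278), and 1 lower, Ifit3 (3.90 ± 0.752 against 8.96 ± 1.31 CPM, SD, n = 3 each, log2 -1.20, SE 0.26, adjusted p = 0.0244). The background there was 2.76% and 1.66%. These member counts are near the share over all genes. The Isg20 call in CD127-PD-1+ cells was lost with the compared groups alone (adjusted p = 0.0894) and without CD4+CD127-PD-1+ replicate 2 (0.333), among other single libraries, and the Ifit3 call with limma-voom (0.0605) and without CD4+CD127+PD-1- replicate 1 (0.107).

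The difference between the CD4 and the CD8 state change was then tested. It was called for 0 of the 41 members by edgeR's quasi-likelihood test, by DESeq2 and by limma-voom, where 0.00611% of all tested genes (1 gene) passed in edgeR. At an unadjusted p under 0.05 there were 5 members, Slfn5, Oas2, Trim25, Ifi44 and Ifit3 (12.2%, against 5.48% of all tested genes), and the smallest adjusted p among members was 0.752. The Slfn5 difference was -1.06 (95% interval -1.81 to -0.31), that of Oas2 was -1.24 (-2.36 to -0.13), and that of Ifit3 was 0.86 (0.03 to 1.69), where a negative value means a larger state change in CD8 cells. For the other members called in 1 lineage the intervals ran from -0.56 to 1.10 (Ifit1), -1.03 to 0.43 (Oas3), -0.77 to 0.32 (Stat2) and -0.77 to 0.27 (Zbp1). A state change that differs between the lineages was thus not shown for any member, and these intervals do not show that the changes were alike.

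The other genes of the interferon pathway were taken from 7 lists. Of 108 tested genes, 17 were called higher and 3 lower in CD4 cells, and 23 higher and 4 lower in CD8 cells. These are 15.7% and 2.78% in CD4 cells and 21.3% and 3.70% in CD8 cells, beside 6.81% and 4.87%, and 9.05% and 6.56%, of all tested genes, so that the lower calls were below the background share. Some lists were near it, such as the transcription factors and brakes with 7.69% called higher in CD4 cells. Of 16 interferon ligand genes in the table, 3 passed the filter and none was called, and 9 of them, 7 of the Ifna genes included, were listed at 0 in every library. The most abundant was Ifng, the type II interferon made by T cells themselves, with 253 and 233 against 123 to 143 CPM in CD4 cells and 269, 222 and 146 against 145, 93.4 and 213 CPM in CD8 cells. The CD4 groups did not overlap and the CD8 groups did, and the estimates were 0.89 (SE 0.29, adjusted p = 0.0738) and 0.50 (SE 0.26, adjusted p = 0.237). Ifnb1, interferon beta, had at most 1.71 CPM in any library.

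Among receptors and kinases (9 tested), Jak1, the kinase shared by the interferon receptors, was called lower in both lineages, at -0.45 (SE 0.09, adjusted p = 0.0105) and -0.53 (SE 0.08, adjusted p = 0.00146). Il10rb, a chain shared by the interferon lambda and IL-10 receptors, was called higher in CD8 cells (0.63, SE 0.19, adjusted p = 0.0405). Of 13 transcription factors and brakes, Irf5, a factor of myeloid and B cells, was called higher in both lineages (1.28 and 1.61). Nucleic acid sensing genes had 3 higher and 1 lower of 17 in CD4 cells and 5 higher and 1 lower in CD8 cells. The toll-like receptor Tlr8 (log2 4.87 and 5.07), the DNA sensor Ifi204 (4.30 and 4.86) and Dhx58, which encodes the RIG-I relative LGP2 (1.13 and 1.36), were higher in both, and the kinase Ikbke was lower in both (-0.85 and -1.53).

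The interferon gamma GTPases and chemokines had 3 higher and 1 lower of 15 in each lineage. Cxcl9 (3.77 and 2.46) and Cxcl10 (1.47 and 1.93), chemokines that attract CXCR3-bearing T cells, were higher in both, Irgm1 was called in CD4 cells (0.59) and Iigp1 in CD8 cells (1.15), and the GTPase gene Tgtp1 was lower in both (-1.85 and -1.62). Of 14 class I antigen presentation genes, H2-K1 was called, lower in CD8 cells (-0.36, SE 0.11, adjusted p = 0.0462), and none in CD4 cells. Other interferon-stimulated genes had 10 higher and 0 lower of 37 in CD4 cells and 13 higher and 0 lower in CD8 cells. Among these were Oas1g (5.46 and 6.20), the entry-blocking membrane protein Ifitm3 (1.74 and 3.33) and the secreted glycoprotein gene Lgals3bp (1.03 and 0.71). The macrophage marker sum moved with all of these state comparisons, as with the members, and its part was not tested.

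**Figure D5:**
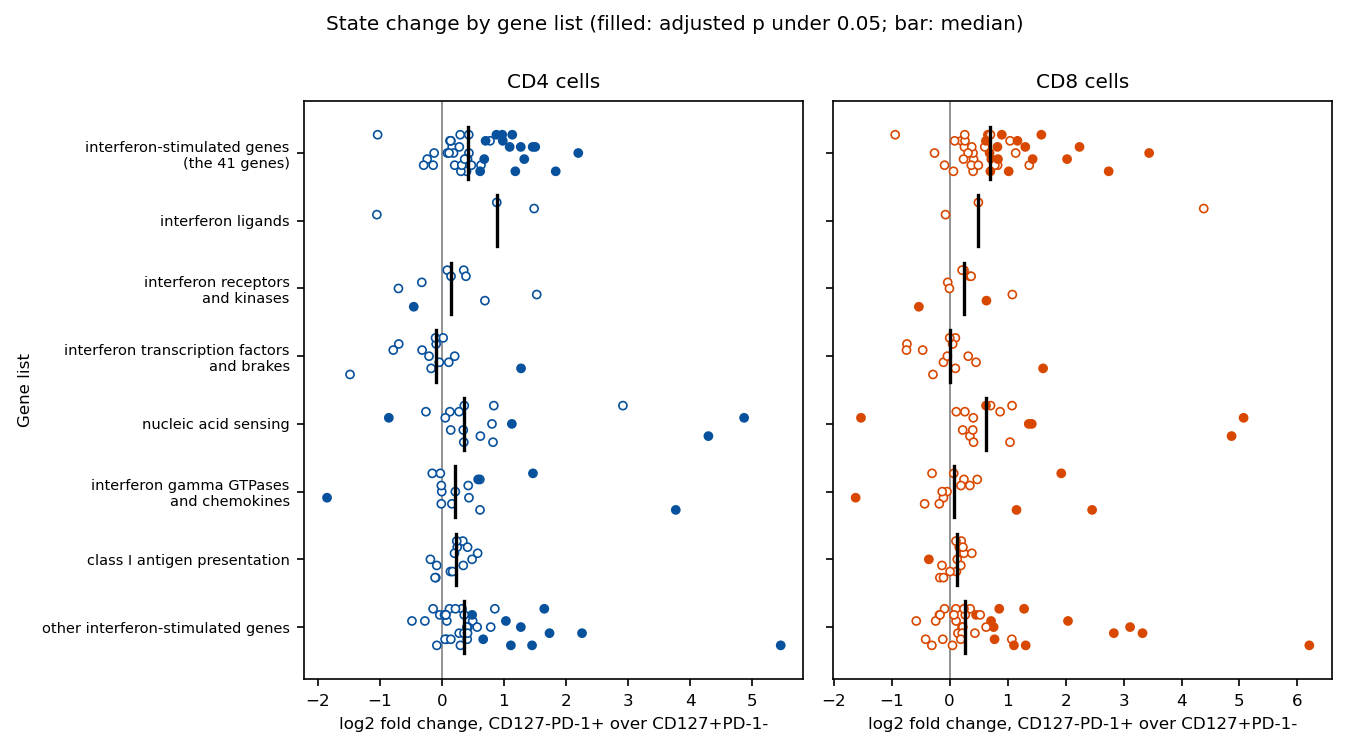
Log2 fold change of CD127-PD-1+ over CD127+PD-1- cells (horizontal axes) for the tested genes of each list (vertical axis) in CD4 (left) and CD8 (right) cells, with a point per gene, filled where the adjusted p is under 0.05, and a bar at the median of the list. The 41 genes have medians of 0.42 and 0.69, while transcription factors and brakes lie near 0.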

How the data were processed

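RNA-seq libraries were made from 2 ng of total RNA per sort by single primer isothermal amplification and read as 75-base single reads, per the labels' protocols. The deposited table holds raw read counts per gene. Per the submitters' processing notes, the authors used STAR, featureCounts and GRCm38 (versions, annotation and strand setting: not given in the sources used here). Of 12 value columns, 11 matched labelled samples and 1 without a label, whose header has the form of the CD4+CD127-PD-1+ columns, was not used. Every row had a gene symbol. Gene coordinates came from GENCODE M21, which held 45229 of the 46078 identifiers.

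Counts were filtered with filterByExpr (16365 genes kept), scaled by TMM and fitted in edgeR 4.0.16 (R 4.3.3) with a mean for each of 4 groups over 11 libraries. Benjamini-Hochberg adjustment of the quasi-likelihood p-values covered the whole set of tested genes, and 0.05 was the threshold. SE is the estimate over the root of F. CPM uses TMM-scaled totals. The procedure was also run on simulated counts, with the same spread for every gene and the same changes in both lineages. That run held no lineage difference and no macrophage signal, so it does not test for them. Alternatives used DESeq2 1.42.0 and limma-voom (limma 3.58.1), other scaling, no filter, only the compared groups, replicate blocks, no mitochondrial genes, and each library left out. Ifna13, Trex1, Gbp6 and Cd28 have more than one row in the table and were not used. The 75-base runs were compared among annotated transcripts.

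All members were accounted for. Values in every library are given for at most 12 called members per state comparison, by smallest p, and for the 4 members with the highest level per kb, and from each pathway list at most 3 called genes per direction. Members and lists were chosen with earlier results of these data known.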

Additional observations from a re-analysis of the deposited data

How the results depend on the processing

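Across 35 calls of members, 665 values were recomputed, of which 549 kept the call, 116 lost it and 0 changed direction. Outside the fits that left out a library, 20 of 280 lost it. The counts called higher in the CD4 and CD8 state comparisons (15 and 17) were 14 and 15 with limma-voom and 15 and 19 with DESeq2. The count called lower in CD4 state was 1 (Bst2) without the filter, with DESeq2, with only the compared groups and with the title replicate block, and in CD8 state 1 without the filter, with DESeq2, with either replicate block and without mitochondrial genes. For CD4 against CD8 in CD127-PD-1+ cells, lower counts were 3 without the filter, 1 with DESeq2 and 1 with the title replicate block, and the higher count was 0 with only the compared groups. In CD127+PD-1- cells higher counts were 4 without the filter, 3 with DESeq2, 4 with only the compared groups and 4 with the description replicate block, and lower counts were 3 in each of these and with the title replicate block and 0 with limma-voom. Leaving out 1 library gave 4 to 15 (CD4) and 10 to 19 (CD8) higher and 0 to 1 lower in the state comparisons. It gave 0 to 1 higher and 0 to 1 lower in CD127-PD-1+ cells, 0 to 3 higher and 0 to 2 lower in CD127+PD-1- cells, and 0 for state by lineage. Causes were not tested.

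Replicate numbers in titles and descriptions differ. Deviations of libraries with the same number correlated above 0.1 in 7 of 15 pairs by title and 10 of 12 by description. The deviations are from group means, so the 2 CD4+CD127-PD-1+ libraries mirror each other and the pairs are not independent. The description pairs had a median of 0.153 and none below 0, against -0.081 for other pairs, and 8 of 10 libraries correlated best with one of their own number (6 of 11 by title). Since not every pair was above 0.1 and the labels do not tie a number to one of the experiments, the numbers were not taken as pairs, although the description numbers come near. With the title replicate block 15 and 18 members were called higher in CD4 and CD8 state, and with the description replicate block 15 and 12. The title replicate block lost Oasl2 and gained Oas3 in CD4 state and gained Ifit1 in CD8 state. The description replicate block lost Ifit1 and gained Dtx3l in CD4 state. It lost Gbp3, Isg20, Oas3, Stat2 and Zbp1 in CD8 state, where the median of the members was 0.41. CD8+CD127-PD-1+ replicate 3 is the only library with description number 4, so with that block it does not add to the CD8 comparison. These CD8 losses are therefore not a check apart from the fit without that library, which lost the same calls and had a median of 0.39. With 2 or 3 libraries a group, the CD4 comparisons rest on few pools, and the smallest state difference called for a member was 0.62 on the log2 scale.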
